A study of Mus musculus with 4 samples.

Results

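The 10 genes described here encode sensors of double-stranded RNA and the proteins that carry their signal: Ticam1, Ddx58, Ifih1, Dhx58, Mavs, Eif2ak2, Traf3, Tbk1, Irf3 and Irf7. They were chosen by name, as core members of the pathway, from the gene names on the array. They were found on 18 of 41174 gene probes, and they are 10 of the 27606 genes on the array. The cells were alveolar type II cells, the lung epithelial cells that make surfactant, which were purified from dissociated mouse lungs on a flow cytometer. There were 4 groups: Tlr3-deficient mice (Tlr3-/-) with tumor, Tlr3-deficient mice without tumor, wild-type (WT) mice with tumor and WT mice without tumor. Tumor-bearing mice had received Lewis lung carcinoma, a mouse lung cancer line, under the skin, and lungs were taken 2 weeks later, while mice of the other groups received no tumor cells. All animals are labelled female. The labels give neither strain nor age, do not say which allele removes Tlr3, and do not say how many mice went into an array. Each group is 1 single-colour array, so no difference has a replicate check, no p-value is given, and the number of arrays limits the precision.

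Double-stranded RNA is a by-product of viral replication and is also shed by damaged cells. In endosomes it is read by Toll-like receptor 3 (Tlr3), which signals through the adaptor TRIF, the product of Ticam1. In the cytosol it is read by the helicases RIG-I (Ddx58) and MDA5 (Ifih1), which signal through the mitochondrial protein MAVS. Both routes meet at the ubiquitin ligase TRAF3 and the kinase TBK1, which activates the transcription factors IRF3 and IRF7 and so the type I interferon genes. A further sensor, the kinase PKR (Eif2ak2), stops translation instead.

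Levels are log2 intensity minus log2 of the array's 75th percentile. That percentile was 904 for Tlr3-deficient cells with tumor, 758 for Tlr3-deficient cells without tumor, 796 for WT cells with tumor and 555 for WT cells without tumor. The arrays came from 3 slides, of which 1 held the WT tumor array together with Tlr3-deficient cells without tumor. Slide and group therefore cannot be told apart. Tlr3 itself was lower in Tlr3-deficient than in WT cells, 2.55-fold with tumor and at least 2.44-fold without, and the labels do not say whether its probes lie in the deleted stretch. The Tlr3-deficient array without tumor went against its label of female: all 4 Y-linked check genes were well above background on this array and on none of the other 3, and Xist had a level of -4.05 there against 4.05 on the WT array without tumor. Every comparison that uses this array carries that difference, whose part was not tested. The surfactant gene Sftpc lay between 8.84 and 9.39 on all 4 arrays, and 0 of 12 type II markers differed by 2-fold in any comparison.

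Precision within an array was read from 169 probes spotted several times. For a log2 difference between arrays, the standard deviation (SD) over such spots was 0.111 for tumor in Tlr3-deficient cells and 0.315 for tumor in WT cells. The SD of the genotype difference was 0.110 with tumor and 0.310 without. These values cover spots and not animals. The wide values belong to the WT array without tumor, and to its columns 1 to 51, where the spots had an SD of 0.372 against 0.111 in columns 52 to 85. In both tumor groups and in Tlr3-deficient cells without tumor, the same SD lay between 0.0711 and 0.148 in either range of columns. The brightest probes of Ticam1, Dhx58, Eif2ak2 and Traf3 lie in columns 1 to 51, and those of the other 6 genes in columns 52 to 85.

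All 10 genes were expressed well above background on all 4 arrays, and none differed by 2-fold in any of the 4 comparisons. With tumor in Tlr3-deficient cells, 0 of 10 were called, where 4.5% of all 18146 genes tested were at least 2-fold higher and 3.9% at least 2-fold lower. With tumor in WT cells it was 0 of 10, where 5.66% of 17974 genes were higher and 1.56% lower. Between genotypes with tumor the count was 0 of 10, where 2.9% of 18265 genes were higher and 2.67% lower in Tlr3-deficient cells. Without tumor it was 0 of 10, where 5.89% of 17635 genes were higher and 2.34% lower. A count of 0 of 10 is close to these shares and is not particular to these genes.

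At the lower threshold of 1.5-fold, 3 of the 10 were called, all with tumor in WT cells. Dhx58 was higher, where 13.9% of all genes tested were, and Ticam1 and Traf3 were lower, where 5.85% were. The probes of these 3 genes all lie in columns 1 to 51. In the other 3 comparisons 0 of 10 passed 1.5-fold, where 10.2% of genes were higher and 10.1% lower with tumor in Tlr3-deficient cells, 6.83% higher and 7.31% lower between genotypes with tumor, and 13.9% higher and 8.09% lower without. The median difference of the 10 genes was 0.13 for tumor in Tlr3-deficient cells and 0.14 for tumor in WT cells, against -0.01 and 0.00 over all genes tested. It was 0.03 between genotypes with tumor and -0.03 without, against -0.05 and -0.04 over all genes. Each of these medians is close to or below the SD of replicate spots.

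**Figure D1:**
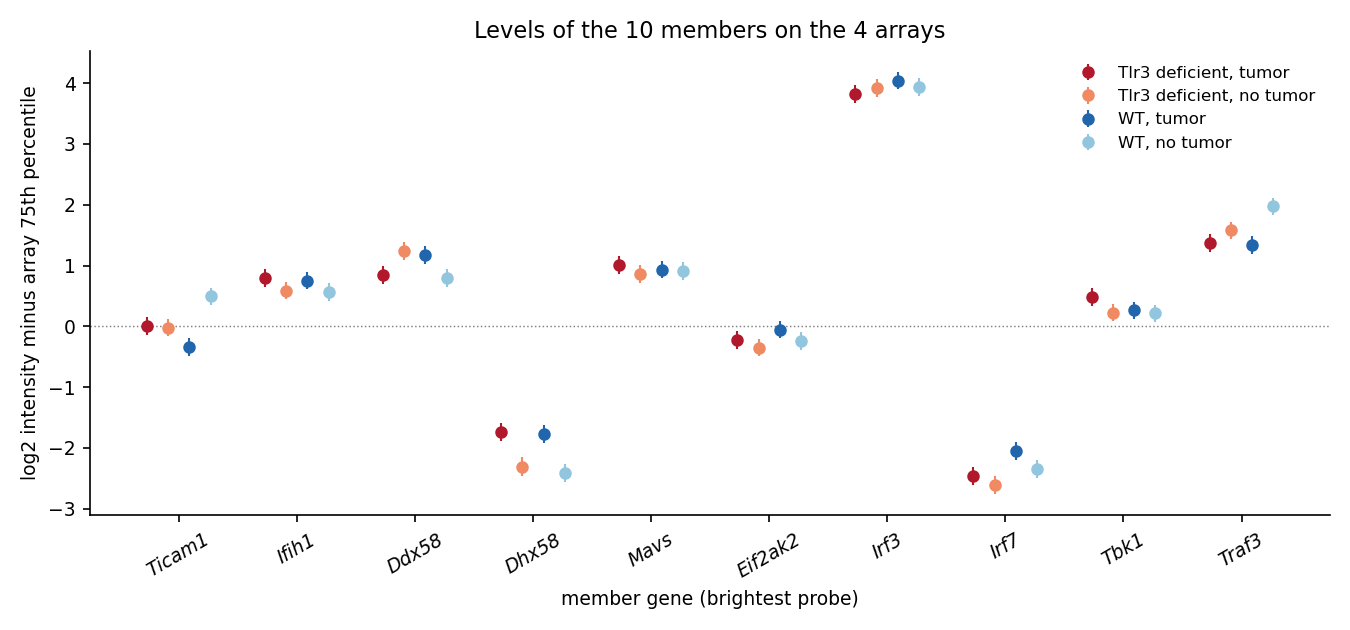
Level of each of the 10 genes (log2 intensity minus the array's 75th percentile, brightest probe) on the 4 arrays, with bars for the scanner's error model. Dhx58 was higher on both tumor arrays (-1.74 and -1.77) than on the arrays without tumor (-2.31 and -2.42), while Mavs lay between 0.86 and 1.01 on all 4.

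Ticam1, the only adaptor through which Tlr3 signals, had the widest range of the 10 genes. Its brightest probe (chr17:56409285-56409344, mm9, minus strand) had a level of 0.01 in Tlr3-deficient cells with tumor, -0.02 in Tlr3-deficient cells without tumor, -0.34 in WT cells with tumor and 0.49 in WT cells without tumor. The WT array without tumor was thus the high one and the WT tumor array the low one. The tumor difference was 0.03 in Tlr3-deficient cells and -0.84 in WT cells, which is 1.79-fold lower with tumor. Tlr3-deficient cells were higher by 0.35 than WT cells with tumor, and the difference without tumor was -0.51.

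A second Ticam1 probe (chr17:56409265-56409324) shares 40 of its 60 bases with the first, so both read nearly the same stretch of the transcript. It gave -0.05 in Tlr3-deficient cells with tumor, -0.06 in Tlr3-deficient cells without tumor, -0.40 in WT cells with tumor and -0.17 in WT cells without tumor. On 3 arrays the probes differed by between 0.04 and 0.05, and on the WT array without tumor by 0.66. With the second probe the WT tumor difference was -0.23 and the genotype difference without tumor 0.10, while the genotype difference with tumor was 0.35, the same as with the first. The tumor difference in Tlr3-deficient cells was 0.02 with the second probe and 0.03 with the first. The probes therefore give alike values in the comparisons that do not use the array on which they disagree.

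The scanner program divides each spot's signal by a factor that follows slow trends over the array. At the brightest Ticam1 probe this factor was 1.03 in Tlr3-deficient cells with tumor, 1.04 in Tlr3-deficient cells without tumor, 1.01 in WT cells with tumor and 0.756 in WT cells without tumor. Over the whole array the factor ran from 0.549 to 1.30 on the WT array without tumor, against extremes of 0.704 and 1.21 on the other 3. At the second Ticam1 probe the factor on the WT array without tumor was 0.762, close to that at the brightest, although the 2 probes differ by 0.66 there. The reason for that gap was not tested. With the division undone, the WT tumor difference of the brightest Ticam1 probe was -0.43 and its genotype difference without tumor -0.06. The genotype difference with tumor was 0.38 and so about as large as before.

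By a fixed measure of likeness, the distance between 4-array profiles centred on their own mean, the genes most like Ticam1 among 15796 were Aven, Zfp655, AK052308, Cct3 and Mlf2. Their distances lay between 0.0578 and 0.106 log2 units. All 5 were highest on the WT array without tumor, and 4 of them are read by probes in columns 7 to 23. With 4 arrays behind each profile, the likeness is a description only.

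Ddx58 encodes RIG-I, which binds short double-stranded RNA ends and activates MAVS. It is read by 4 probes, and 3 of them are shown (5′ to 3′, from the array annotation, all on the minus strand of chr4, mm9), because the tumor difference depends on the probe.
Ddx58 at chr4:40156918-40156977: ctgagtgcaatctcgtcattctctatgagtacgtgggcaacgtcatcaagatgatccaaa
Ddx58 at chr4:40152842-40152901: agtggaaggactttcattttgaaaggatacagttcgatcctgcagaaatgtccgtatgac
Ddx58 at chr4:40176528-40176587: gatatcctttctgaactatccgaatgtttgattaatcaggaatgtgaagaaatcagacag

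The first of these is the brightest. Its level was 0.84 in Tlr3-deficient cells with tumor, 1.24 in Tlr3-deficient cells without tumor, 1.17 in WT cells with tumor and 0.80 in WT cells without tumor. Its tumor difference was thus -0.40 in Tlr3-deficient cells and 0.37 in WT cells, in opposite directions and each beyond the SD of replicate spots. Between genotypes the difference was -0.33 with tumor and 0.44 without.

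The other 3 Ddx58 probes did not show the pattern of the brightest. Their tumor differences were 0.03, 0.04 and 0.13 in Tlr3-deficient cells and 0.04, -0.35 and 0.12 in WT cells, in the order chr4:40151133-40151192, chr4:40152842-40152901 and chr4:40176528-40176587. All 3 are dimmer, with levels between -3.42 and -1.85, but well above background on every array. The mean of the 4 probes gave -0.05 in Tlr3-deficient cells and 0.04 in WT cells. With the trend division undone, the brightest probe gave -0.37 in Tlr3-deficient cells and 0.06 in WT cells.

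Ifih1 encodes MDA5, which assembles along long double-stranded RNA. Its brightest probe (chr2:62435621-62435680, minus strand) had a level of 0.80 in Tlr3-deficient cells with tumor, 0.59 in Tlr3-deficient cells without tumor, 0.75 in WT cells with tumor and 0.57 in WT cells without tumor. Both tumor arrays were above both arrays without tumor, by 0.21 in Tlr3-deficient cells and 0.18 in WT cells. The genotype differences were 0.04 with tumor and 0.02 without. A second, dimmer probe, aligned over 2148 bases from chr2:62445113-62447260, gave tumor differences of -0.20 in Tlr3-deficient cells and 0.28 in WT cells. In Tlr3-deficient cells the direction thus turned with the probe.

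Dhx58 encodes LGP2, a helicase without the signalling domain of RIG-I and MDA5 that tunes both. Its level (chr11:100556271-100556330, minus strand) was -1.74 in Tlr3-deficient cells with tumor, -2.31 in Tlr3-deficient cells without tumor, -1.77 in WT cells with tumor and -2.42 in WT cells without tumor. The processed intensity was 270 in Tlr3-deficient cells with tumor and 153 without, and 234 in WT cells with tumor and 104 without. Both tumor arrays were above both arrays without tumor, 1.48-fold in Tlr3-deficient cells and 1.57-fold in WT cells. The log2 differences of 0.57 and 0.65 had errors of 0.211 and 0.212 in the scanner's error model. Against the SD of replicate spots in those columns, the difference was 5.28 SD in Tlr3-deficient cells but 1.69 SD in WT cells. The genotypes differed by 0.02 with tumor and 0.11 without, both within the SD of replicate spots.

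Of the 10 genes, Dhx58 had the largest tumor difference in Tlr3-deficient cells and the largest positive one in WT cells. With the trend division undone the values were 0.58 in Tlr3-deficient cells and 0.54 in WT cells. Background correction by normexp starts from signals before the trend division and adds an offset of 50 to every intensity, which shrinks differences of dim genes by construction. It gave 0.36 and 0.29. A second Dhx58 probe, annotated to another transcript at chr11:100564085-100564144, was not well above background on any array and gives no difference.

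The RNA of a sorted population is a mixture, in which fewer cells of a type and less RNA per cell cannot be told apart. The neutrophil marker list was at least 2-fold higher with tumor in 10 of 11 genes in Tlr3-deficient cells and in 11 of 11 in WT cells. Its summed level was 6.10 in Tlr3-deficient cells with tumor, 1.83 in Tlr3-deficient cells without tumor, 6.75 in WT cells with tumor and 1.98 in WT cells without tumor (log2). S100a8 alone was 28.8-fold higher with tumor in Tlr3-deficient cells and 41.9-fold higher in WT cells. By their brightest probes, Dhx58, Ifih1, Mavs, Eif2ak2, Irf7 and Tbk1 had tumor differences above 0 in both genotypes, and the other genes did not. The second Ifih1 probe went the other way in Tlr3-deficient cells (-0.20). The second Tbk1 probe did so in both Tlr3-deficient (-0.34) and WT cells (-0.26). In WT cells the brightest probes of Mavs (0.03), Tbk1 (0.05) and Eif2ak2 (0.19) were within the SD of replicate spots. With median centring Mavs gave -0.12 and Tbk1 -0.10 there. With normexp Irf7 gave -0.04 in Tlr3-deficient cells. The part of neutrophils in these differences was not tested.

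Mavs encodes the adaptor on the mitochondrial surface through which RIG-I and MDA5 signal. Its single probe (chr2:131073435-131073494, plus strand) had a level of 1.01 in Tlr3-deficient cells with tumor, 0.86 in Tlr3-deficient cells without tumor, 0.93 in WT cells with tumor and 0.91 in WT cells without tumor. This is the narrowest range of the 10 genes, 0.15, and lies inside the error model for a difference of 2 spots, which was 0.20. With tumor it differed by 0.15 in Tlr3-deficient cells and by 0.03 in WT cells.

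**Figure D2:**
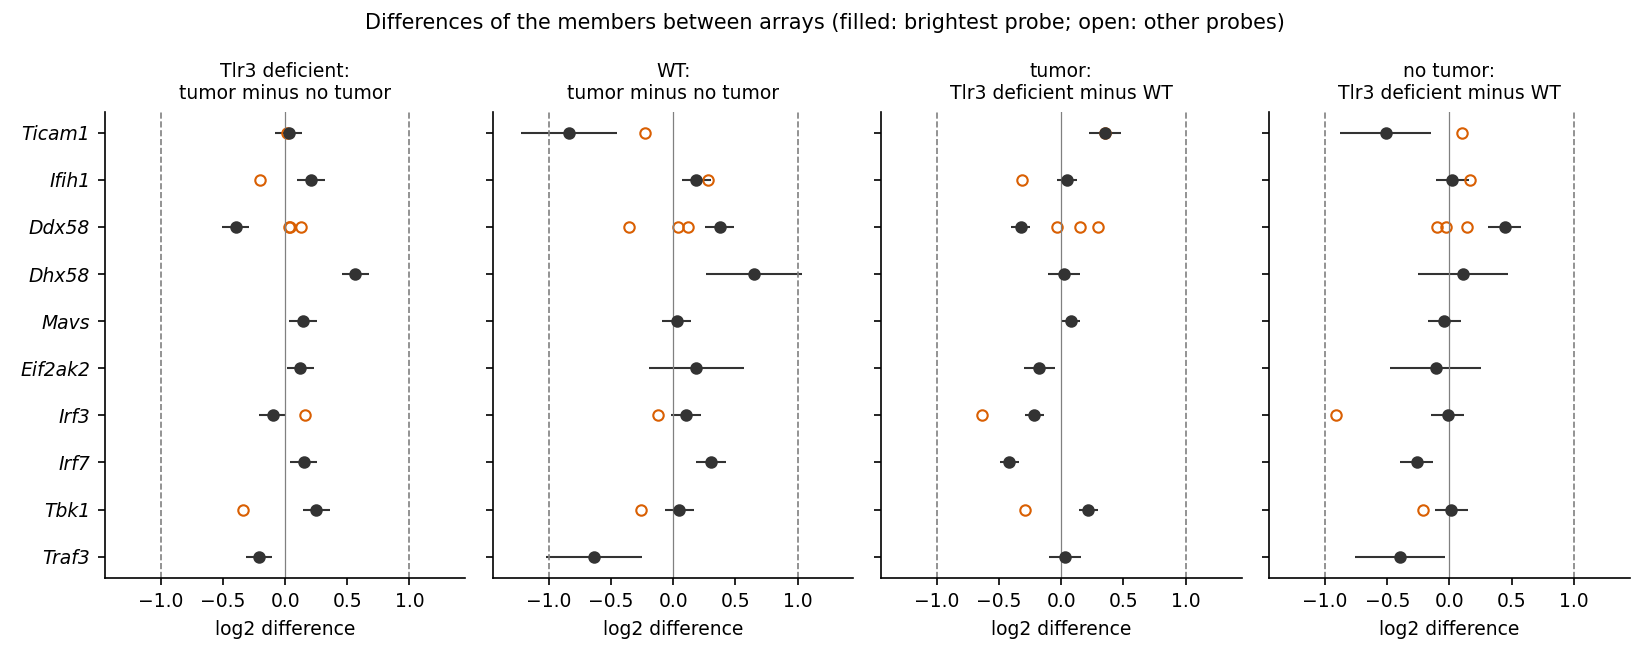
Log2 difference between arrays for each gene, with filled points for the brightest probe, bars for the SD of replicate spots in that range of array columns and open points for other probes well above background on all 4 arrays. No filled point reaches the dashed 2-fold lines, and for Ticam1, Ifih1, Ddx58, Irf3 and Tbk1 an open point lies on the other side of 0 from the filled one in at least 1 panel.

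Traf3 encodes a ubiquitin ligase that links MAVS and TRIF to the kinases below. Its probe (chr12:112505042-112505101, plus strand) had a level of 1.37 in Tlr3-deficient cells with tumor, 1.58 in Tlr3-deficient cells without tumor, 1.34 in WT cells with tumor and 1.97 in WT cells without tumor. As for the brightest Ticam1 probe, but not the second, the WT array without tumor was the high one. The Traf3 tumor difference was -0.21 in Tlr3-deficient cells and -0.64 in WT cells, and the genotype difference 0.03 with tumor and -0.40 without.

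The Traf3 value on the WT array without tumor carries one of the strongest trend corrections among the 18 probes. The factor was 0.673 there, against 1.03 in Tlr3-deficient cells with tumor, 1.06 in Tlr3-deficient cells without tumor and 1.03 in WT cells with tumor. With the division undone, the tumor difference was -0.25 in Tlr3-deficient cells and -0.04 in WT cells, and the genotype difference without tumor turned to 0.25. The lower Traf3 level with tumor in WT cells thus appears after this correction and hardly before it. Traf3 has no second probe on the array.

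Tbk1 encodes the kinase that phosphorylates IRF3 and IRF7. Its probes are shown (array annotation, minus strand of chr10, mm9, each aligned over more bases of the genome than its own length) because they gave opposite directions.
Tbk1 at chr10:120988364-120988587: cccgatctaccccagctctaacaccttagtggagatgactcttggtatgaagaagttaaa
Tbk1 at chr10:120989556-120990810: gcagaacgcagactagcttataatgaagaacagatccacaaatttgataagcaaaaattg

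The first probe, the brighter one, had a level of 0.48 in Tlr3-deficient cells with tumor, 0.23 in Tlr3-deficient cells without tumor, 0.26 in WT cells with tumor and 0.21 in WT cells without tumor. Only the Tlr3-deficient tumor array stood above the others, by 0.25 over Tlr3-deficient cells without tumor and by 0.22 over WT cells with tumor. The second probe had -0.78, -0.44, -0.49 and -0.23 on the same arrays in the same order. Here the Tlr3-deficient tumor array was the lowest, with a tumor difference of -0.34 in Tlr3-deficient cells and -0.26 in WT cells. Both probes lie in columns 72 to 78. With tumor in Tlr3-deficient cells each differed by over 2 SD of replicate spots, in opposite directions. In WT cells the tumor difference of the first probe, 0.05, was within that SD.

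Irf3 encodes the transcription factor that TBK1 activates first, present before any stimulus. Its brightest probe (chr7:52257673-52257732, plus strand) had a level of 3.82 in Tlr3-deficient cells with tumor, 3.92 in Tlr3-deficient cells without tumor, 4.04 in WT cells with tumor and 3.94 in WT cells without tumor. The tumor difference was -0.10 in Tlr3-deficient cells and 0.10 in WT cells, within the error of the arrays. Tlr3-deficient cells were lower by 0.22 than WT cells with tumor, and the difference without was -0.02.

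A second Irf3 probe (chr7:52253377-52253436), annotated to a non-coding transcript, showed the largest genotype difference among the probes well above background on all 4 arrays. It had -1.42 in Tlr3-deficient cells with tumor, -1.57 in Tlr3-deficient cells without tumor, -0.78 in WT cells with tumor and -0.66 in WT cells without tumor. Both Tlr3-deficient arrays were below both WT arrays, by 0.64 with tumor and 0.91 without. With the brightest probe the same differences were -0.22 and -0.02, so the Irf3 probes differ in the size of the genotype difference.

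Irf7 encodes the factor that amplifies the interferon response and is itself induced by interferon. Its single probe is shown (array annotation, minus strand, mm9, aligned over 351 bases) because it gave the largest genotype difference with tumor among the brightest probes.
Irf7 at chr7:148450664-148451014: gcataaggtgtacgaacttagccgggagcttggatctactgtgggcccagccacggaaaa

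Irf7 had a level of -2.46 in Tlr3-deficient cells with tumor, -2.61 in Tlr3-deficient cells without tumor, -2.04 in WT cells with tumor and -2.35 in WT cells without tumor. Both Tlr3-deficient arrays were below both WT arrays, by 0.42 with tumor and 0.26 without. Each genotype difference was over 2 SD of replicate spots in those columns, at 5.41 SD with tumor and 2.01 SD without. In the scanner's error model these differences had errors of 0.210 with tumor and 0.214 without. With tumor Irf7 was higher by 0.15 in Tlr3-deficient cells and by 0.30 in WT cells. Under every processing alternative the genotype difference stayed below 0, between -0.46 and -0.37 with tumor and between -0.40 and -0.21 without. Several alternatives could not turn it. For a single bright probe, the mean of all probes, the filters on dim probes and the restriction by columns return the same value. Median centring and the other percentile shift all genes alike, by less than either difference. Normexp, quantile normalization, the deposited log2 table and undoing the trend division gave -0.46 to -0.39 with tumor and -0.40 to -0.32 without.

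Eif2ak2 encodes PKR, which on binding double-stranded RNA phosphorylates the initiation factor eIF2 alpha and stops translation. Its level (chr17:79252168-79252227, minus strand) was -0.23 in Tlr3-deficient cells with tumor, -0.35 in Tlr3-deficient cells without tumor, -0.05 in WT cells with tumor and -0.24 in WT cells without tumor. For PKR the tumor difference was 0.12 in Tlr3-deficient cells and 0.19 in WT cells, and the genotype difference -0.18 with tumor and -0.11 without. All 4 values are within the error model of a difference.

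By the brightest probe, the difference was over 2 SD of replicate spots for Ddx58, Dhx58 and Tbk1 with tumor in Tlr3-deficient cells. With tumor in WT cells it was so for Ticam1, Ddx58 and Irf7. Between genotypes it was so for Ticam1, Ddx58, Irf3, Irf7 and Tbk1 with tumor, and for Ddx58 and Irf7 without. The share of all genes over 2 SD was not computed, so how many of the 10 pass is no result about them. This SD covers spots and not animals. The second Ticam1 probe did not show the difference with tumor in WT cells, and no other Ddx58 probe was over 2 SD in the direction of the brightest. The second Tbk1 probe was also over 2 SD with tumor in Tlr3-deficient cells and between genotypes with tumor, but in the opposite direction. Both tumor differences share no array, whereas each tumor difference shares an array with each genotype difference.

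**Figure D3:**
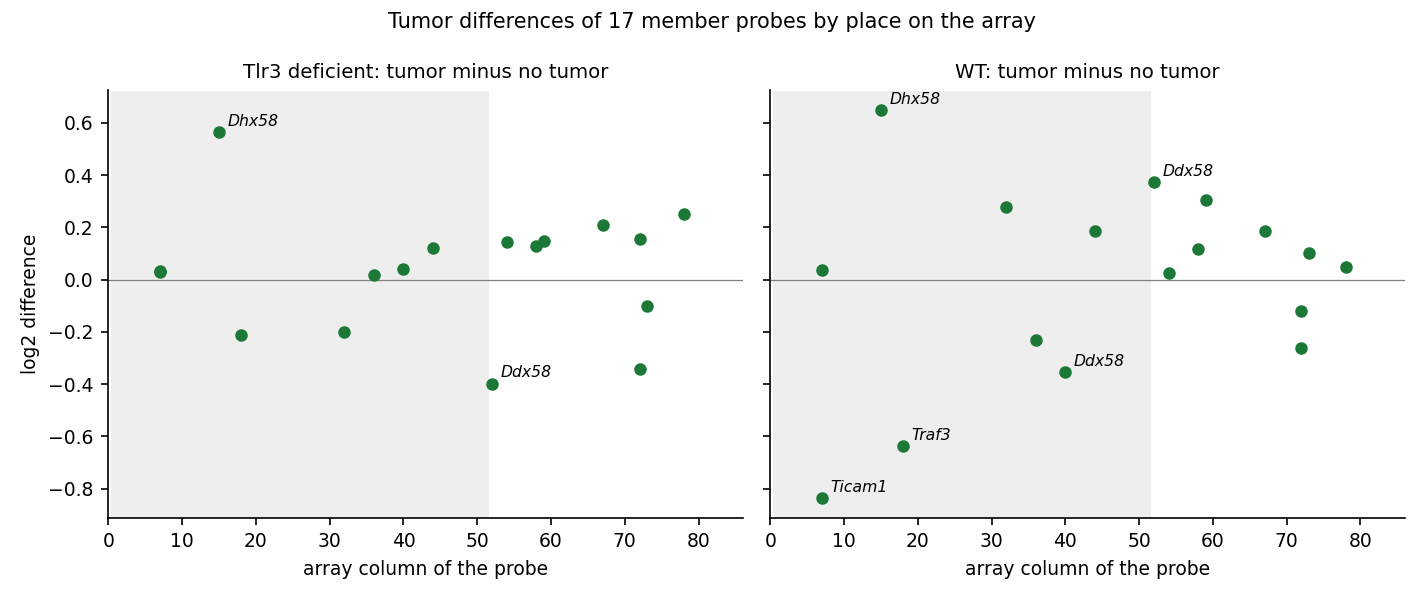
Tumor difference (log2) of the 17 probes well above background on all 4 arrays against the column of the array in which the probe is spotted, with columns 1 to 51 shaded. In WT cells the largest differences in either direction (Ticam1 at -0.84, Traf3 at -0.64 and Dhx58 at 0.65) lie in the shaded range.

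Several of the 10 genes are themselves induced by interferon, whose factors bind an element of the letters GAAA, any 2 bases and GAAA again. This motif of 10 bases was searched on both strands in RefSeq promoter windows (GRCm38.p6, 250 bases before to 50 after the start of a gene), where 3.44% of 32851 windows hold it. Of the 9 genes with a window, 3 held it, and the stretch around it is shown for these, read 5′ to 3′ along the minus strand on which all 3 genes lie, with the match in capitals (for Ddx58 it is on the opposite strand).
Ifih1 at chr2:62646206-62646235: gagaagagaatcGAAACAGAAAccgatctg
Ddx58 at chr4:40239804-40239833: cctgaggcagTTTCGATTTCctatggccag
Eif2ak2 at chr17:78882535-78882564: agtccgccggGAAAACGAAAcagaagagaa

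The matches begin 32, 2 and 18 bases after the start in that order. The tumor differences of these genes were 0.21, -0.40 and 0.12 in Tlr3-deficient cells and 0.18, 0.37 and 0.19 in WT cells. No match was found in the windows of Ticam1, Mavs, Irf3, Irf7, Tbk1 and Traf3. A match is a description of the letters and not a binding site.

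Of 115 other genes of the pathway on the array, 110 were tested for tumor in both genotypes. With tumor in Tlr3-deficient cells, 4 were at least 2-fold higher and 2 lower, where 4.5% and 3.9% of all genes tested were. With tumor in WT cells 7 were higher and 1 lower, where 5.66% and 1.56% of all genes were. Between genotypes, 0 were higher and 2 lower with tumor, where 2.9% and 2.67% of all genes were. Of 107 tested without tumor 6 were higher and 2 lower, where 5.89% and 2.34% of all genes were. The medians were 0.05 and -0.02 for tumor in Tlr3-deficient and WT cells, and 0.02 and -0.03 between genotypes with and without tumor.

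**Figure D4:**
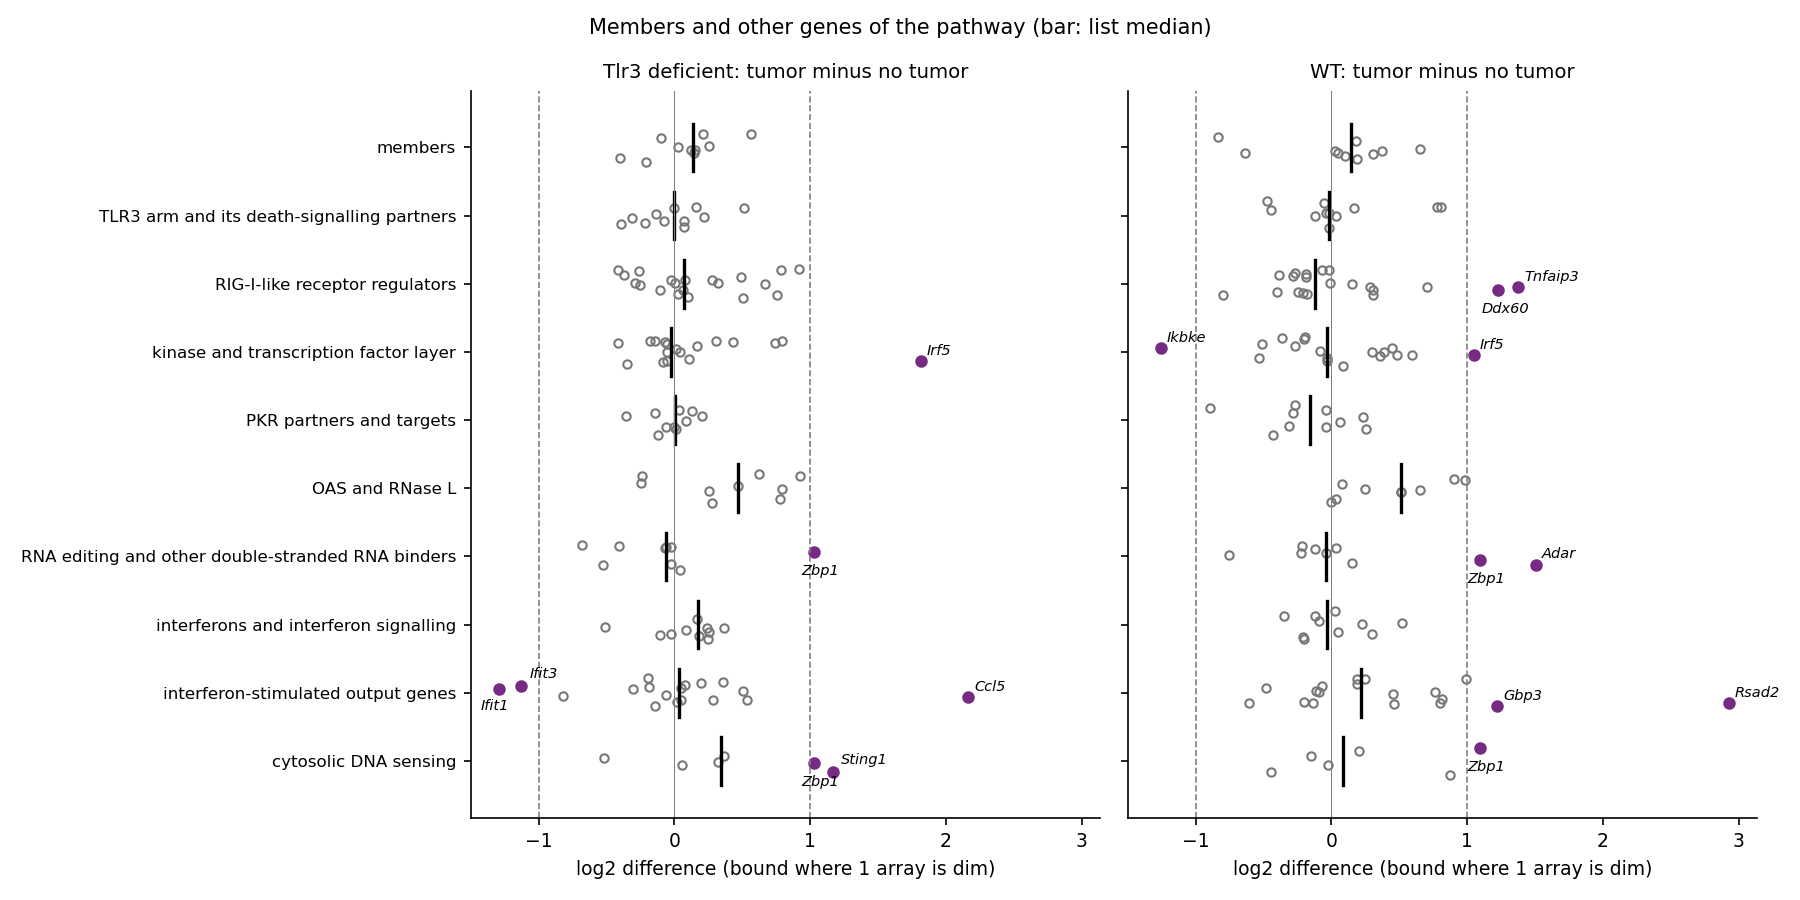
Log2 tumor difference of the 10 genes (top row) and of the other pathway genes by list, each point a gene, filled where it passed 2-fold, with a bar at the list median. Of the 10 genes none passed 2-fold, whereas Rsad2 with tumor in WT cells reached 2.93 and Ccl5 with tumor in Tlr3-deficient cells 2.16.

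Zbp1, a sensor of Z-form RNA and DNA, was the only one of these genes besides Irf5 called with tumor in both genotypes. It was 2.04-fold higher in Tlr3-deficient cells and 2.13-fold higher in WT cells. The single Zbp1 probe lies in column 20, and in columns 1 to 51 the SD of replicate spots for tumor in WT cells was 0.384. Irf5, a relative of Irf3 and Irf7 that is prominent in myeloid cells, was 3.52-fold higher with tumor in Tlr3-deficient cells and 2.07-fold higher in WT cells. Ikbke, the kinase closest to Tbk1, was at a level of -4.25 in Tlr3-deficient cells with tumor, -5.05 in Tlr3-deficient cells without tumor, -4.57 in WT cells with tumor and -3.31 in WT cells without tumor. It was 2.39-fold lower with tumor in WT cells and at least 3.33-fold lower in Tlr3-deficient than in WT cells without tumor. With tumor in WT cells, Tnfaip3, which restrains signalling downstream of MAVS, was 2.60-fold higher, and the helicase gene Ddx60 at least 2.34-fold higher by its brighter probe. The other Ddx60 probe gave a log2 difference of 0.34 and the mean of both 0.78, which is under 2-fold. Sting1, the adaptor of the DNA-sensing route, was 2.24-fold higher with tumor in Tlr3-deficient cells.

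Among 18 interferon-stimulated genes tested, 1 was higher (Ccl5) and 2 lower (Ifit1 and Ifit3) with tumor in Tlr3-deficient cells. Of all genes tested, 4.5% were higher and 3.9% lower there. With tumor in WT cells 2 were higher (Rsad2 and Gbp3), where 5.66% of all genes were. Rsad2 encodes the antiviral enzyme viperin. By its brightest probe it was 7.60-fold higher with tumor in WT cells and 3.66-fold lower in Tlr3-deficient than in WT cells with tumor. All 3 of its probes gave both directions, although the dimmest was not well above background in Tlr3-deficient cells with tumor, at 2.93, 1.86 and 1.81 for tumor in WT cells and -1.87, -2.20 and -2.26 between genotypes with tumor. Ifit1 was 2.44-fold and Ifit3 2.19-fold lower with tumor in Tlr3-deficient cells. Without tumor, 5 of 18 were higher in Tlr3-deficient than in WT cells: Ifit2, Ifit3, Rsad2, Gbp3 and Ifi44. Of all genes tested, 5.89% were higher in this comparison. For Rsad2 this call rests on its brightest probe, since the other 2 gave log2 differences of 0.78 and 0.28 and the mean of the 3 was 0.81. Of the OAS genes and RNase L, which make and read the second messenger of another double-stranded RNA sensor, 0 of 9 were called with tumor in either genotype, with medians of 0.62 in Tlr3-deficient cells and 0.52 in WT cells (0.47 and 0.51 with bounds for dim genes). With the trend division undone, 4 of the calls named here fell under 2-fold, with log2 differences of 0.97 for Zbp1 with tumor in Tlr3-deficient cells, of 0.87 for Irf5 with tumor in WT cells and of 0.85 for Ifit2 and 0.88 for Ifit3 between genotypes without tumor.

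Adar, which edits double-stranded RNA, was called with tumor in WT cells by 1 of its probes. The Adar probe in column 18 was 2.84-fold higher, while the other had a log2 difference of 0.07. Without tumor, the column 18 probe was also called, 2.52-fold higher in Tlr3-deficient than in WT cells, while the other gave -0.001. Its level was -0.94 in WT cells without tumor and between 0.33 and 0.57 on the other arrays. Gbp3, with a log2 difference of 1.22 for tumor in WT cells, is read by a single probe in column 22. With the trend division undone, the Adar probe in column 18 gave 2.08 and the Gbp3 probe 1.58 for tumor in WT cells. For both the difference was thus larger before the correction. Both lie in the columns of the WT array without tumor where replicate spots scatter most. So do the brightest probes of Zbp1 (column 20), Ddx60 (column 19), Ifi44 (column 4), Rsad2 (column 27) and Tlr3 (column 46).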

How the data were processed

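Spots were read by Agilent Feature Extraction (version 10.7.3.1, from headers of the scanner files and the submitters' processing notes). The deposited signal used here is an intensity on a linear scale from which background was taken and which was divided by a detrending factor, a ratio deposited beside it for each spot, per the file headers. The authors also deposited a table of log2 values for the same arrays. The steps behind that table are not stated by the labels or its header. Its columns correlate with the log2 intensities at r between 0.99898 and 0.99972 across probes, have medians of 6.31 to 6.32, and are used as an alternative. No probe of the 10 genes departs between the sources by over 0.195 log2 units.

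Control spots and outlier-flagged spots were left out, spots of a probe averaged, and log2 of each array's 75th percentile subtracted. A gene is represented by its brightest probe over the 4 arrays. A probe counts as well above background on an array where most of its spots are flagged so. A gene entered a comparison if either array measured it well above background, and was called at 2-fold. If the other array did not, the fold is a bound, taken against the dim probe or, if higher, the weakest signal that passed the background flag there. Probes were named through RefSeq accessions (27668 of 41174) or else keep the array's name. Coordinates of probes are the array annotation's, on mm9. No annotation of that build was used, so exons and untranslated regions are not assigned. No test across genes was made, since each group is 1 array.

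All 18 probes of the 10 genes are reported. Of the pathway lists, 1 gene is not reported here and is left out of their counts. Of other pathway genes those called in any comparison are named, and likeness is given for the gene with the widest range. The genes, lists and tests were chosen with earlier results of these data known. Alternatives were normexp (limma 3.58.1, R 4.3.3) with an offset of 50 on the mean and background signals, which also leaves out the detrending, quantile normalization, median centring, a percentile over probes well above background on all 4 arrays, filters on dim probes, the mean of all probes and the authors' deposited log2 table. The alternatives of undoing the detrending, using columns 52 to 85 alone and a threshold of 1.5-fold were chosen after seeing the data. Tables were handled in Python 3.11.15 with pandas 2.3.3. The code for the calls was run on simulated data with shifts well beyond 2-fold. The simulated noise was below that of the WT array without tumor, so the run checks the code and not the calls made here.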

Additional observations from a re-analysis of the deposited data

Results flagged for a closer look

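By its brightest probe, Ddx58 differed with tumor in opposite directions in the genotypes, at -0.40 in Tlr3-deficient cells and 0.37 in WT cells. The tumor difference in WT cells exceeded that in Tlr3-deficient cells by 0.77 on the log2 scale, and this difference was not tested, since each group is 1 array. The mean of the 4 Ddx58 probes gave -0.05 in Tlr3-deficient cells and 0.04 in WT cells. With detrending undone the brightest probe gave -0.37 in Tlr3-deficient cells and 0.06 in WT cells.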

How the results depend on the processing

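The count of the 10 genes called at 2-fold was 0 in all 4 comparisons under each alternative run. The median difference between genotypes with tumor was -0.0860 over the 6 genes with a probe in columns 52 to 85, against 0.03 over all 10, and the alternative holds fewer genes by construction. The median for tumor in WT cells was -0.005 with median centring, -0.006 with normexp and -0.02 with detrending undone, against 0.14, so its direction turned within the SD of replicate spots. Median centring shifts every gene by -0.15 for tumor in WT cells. Of 40 gene differences, 14 moved by more than that SD with the mean of all probes, 11 with normexp and 9 with detrending undone. Normexp starts from signals before detrending, so it changes background correction and detrending together, and its effect is not that of the background correction alone. Ticam1 for tumor in WT cells lay between -0.99 and -0.39 over the alternatives and Traf3 between -0.79 and -0.02. No alternative used the second Ticam1 probe alone, which gave -0.23. No paired analysis was possible because each group is 1 array. For the same reason no array could be left out, and the slide could not be used as a block.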

Other observations

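Markers of other cell types differed between the arrays as well. With tumor, 5 of 8 alveolar type I markers were at least 2-fold lower in Tlr3-deficient cells and 3 of 8 in WT cells, and Rtkn2 was 3.52-fold lower in Tlr3-deficient cells and 2.92-fold lower in WT cells. Of 8 alveolar macrophage markers tested, 4 were higher with tumor in Tlr3-deficient cells and 1 in WT cells. Chil3, which macrophages secrete, was 4.59-fold higher with tumor in Tlr3-deficient cells and had a log2 difference of -0.24 in WT cells. The antibody-chain gene Jchain was 165-fold higher with tumor in Tlr3-deficient cells and 2.97-fold higher in WT cells. Of plasmacytoid dendritic cell markers, cells known for high Irf7, 2 of 8 were higher with tumor in Tlr3-deficient cells, and 1 of 6 was higher and 1 lower in WT cells. Siglech, which defines these cells, was well above background only on the Tlr3-deficient array without tumor. The part of these cells in the values of the 10 genes was not tested.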
